A study of Homo sapiens with 12 samples.

Results

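The genes described here are the VEGF family, comprising 4 ligands (PGF, VEGFA, VEGFB and VEGFC) and 4 receptors (FLT1, KDR, NRP1 and NRP2). They were picked by gene symbol, with earlier results of these data known, and make up 8 of the 43735 genes listed in the table of raw read counts. All 8 had at least 1 read in the 12 cultures. PGF, VEGFA, VEGFB, VEGFC and NRP2 were among the 14085 genes with enough reads to be tested, whereas FLT1, KDR and NRP1 were not.

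RNA was sequenced from 2 multiple myeloma cell lines, glucocorticoid (GC)-sensitive MM1S and GC-resistant MM1R, which were either left untreated or exposed to withaferin A (WA, 1 µM, 3 h), a steroidal lactone of Withania somnifera. Each of the 4 groups held 3 cultures, at passages 16, 22 and 23 for MM1S and 4, 6 and 7 for MM1R, grown in RPMI-1640 with serum. Each phenotype was thus represented by 1 cell line, the passages of which were not shared with the other line, so that line and passage cannot be told apart. The labels name no transgene or deletion, and no vehicle for the untreated cultures.

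The cultures had 17625110 to 19368343 reads assigned to genes. All 9 plasma cell markers examined exceeded 1 CPM (reads of a gene scaled to a common library size) in all 12 cultures. With WA 2 of the 9 passed an adjusted p of 0.05 in each line, where 14.0% of all genes did in MM1R and 10.5% in MM1S. IRF4 fell by 0.73 in MM1S and 0.96 in MM1R on the log2 scale (adjusted p = 0.019 and 0.0032, edgeR). SLAMF7 rose by 0.53 and 0.40 (adjusted p = 0.0069 and 0.026, edgeR). With single libraries left out this count ranged from 1 to 3 in either line. Of 8 endothelial markers only PECAM1 did so, while CDH5 and CLDN5 were at 0 in every culture. The summed stromal markers were higher with WA, ranging from 2.24 to 4.04 CPM in untreated MM1S against 3.74 to 8.35 CPM with WA, and from 3.84 to 4.69 CPM in untreated MM1R against 6.86 to 20.4 CPM with WA. This sum was carried by COL1A1, a fibrillar collagen chain, which rose by 2.78 in MM1S and 2.46 in MM1R on the log2 scale (adjusted p = 0.0045 and 0.0039, edgeR), while COL1A2, COL3A1 and LUM, 3 of the 6 stromal markers, had no read in any culture. Of the 4 T cell markers only CD3E exceeded 1 CPM throughout, CD3G had no read, and the 4 monocyte markers together reached at most 0.608 CPM.

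VEGF ligands are secreted dimeric growth factors that drive the formation and permeability of blood vessels. VEGFA signals mainly through the receptor tyrosine kinase KDR (VEGFR2), PGF and VEGFB bind FLT1 (VEGFR1), and VEGFC acts on lymphatic endothelium through FLT4 (VEGFR3). The neuropilins NRP1 and NRP2 are co-receptors that also bind class 3 semaphorins. In multiple myeloma the plasma cells are a known source of VEGFA, which acts on the vessels and stroma of the bone marrow.

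The largest change with WA within the family concerned PGF, which encodes placental growth factor. The gene occupies chromosome 14 from 75408537 to 75422329 on GRCh37, minus strand, with 7 exons in the canonical transcript. In untreated cells it had 0, 0 and 3 reads in MM1S of passages 16, 22 and 23, and 0 reads in each MM1R culture. With WA it had 168, 131 and 297 reads in MM1S, and 177, 160 and 236 reads in MM1R of passages 4, 6 and 7. Every WA culture thus lay far above every untreated culture of both lines, and the highest count of each line was found at the highest passage number.

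After scaling with TMM, the level of PGF was 0.0497 ± 0.0861 CPM (SD, n = 3) in untreated MM1S and 10.8 ± 4.83 CPM (SD, n = 3) with WA. In MM1R it was 0 CPM in the untreated cultures and 10.9 ± 2.97 CPM (SD, n = 3) with WA. Against a floor of 3 reads per library, PGF was at least 66.2-fold higher with WA in MM1R. In MM1S the summed counts gave a ratio of 210.3 (95% interval 71.6 to 1023, counting error only). As reads were not tagged with molecular identifiers, such intervals and floors cover counting error only. PGF passed the filter on low counts only through its WA libraries, where it was high, and was left out by a filter of 10 reads or more in each library. The rise passed the test in both lines, with fitted log2 fold changes of 10.66 ± 0.87 (SE) in MM1R and 7.54 ± 0.64 (SE) in MM1S, at adjusted p-values of 2.3e-05 and 2.8e-05 (quasi-likelihood test of edgeR, adjusted after Benjamini and Hochberg). These fitted values hang on the few untreated reads, and the MM1S value became 10.63 without untreated MM1S of passage 23, the library with the 3 reads. Without the filter on low counts the adjusted p was 9.6e-69 in MM1R and 3.7e-64 in MM1S by edgeR. That fit gave VEGFA and VEGFB nearly the same SE in MM1R (0.146 and 0.147, against 0.27 and 0.105 with the filter). Its p-values thus hardly reflect the spread of a single gene between cultures. In bulk RNA, more cells with a transcript and more transcript per cell cannot be told apart.

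**Figure D1:**
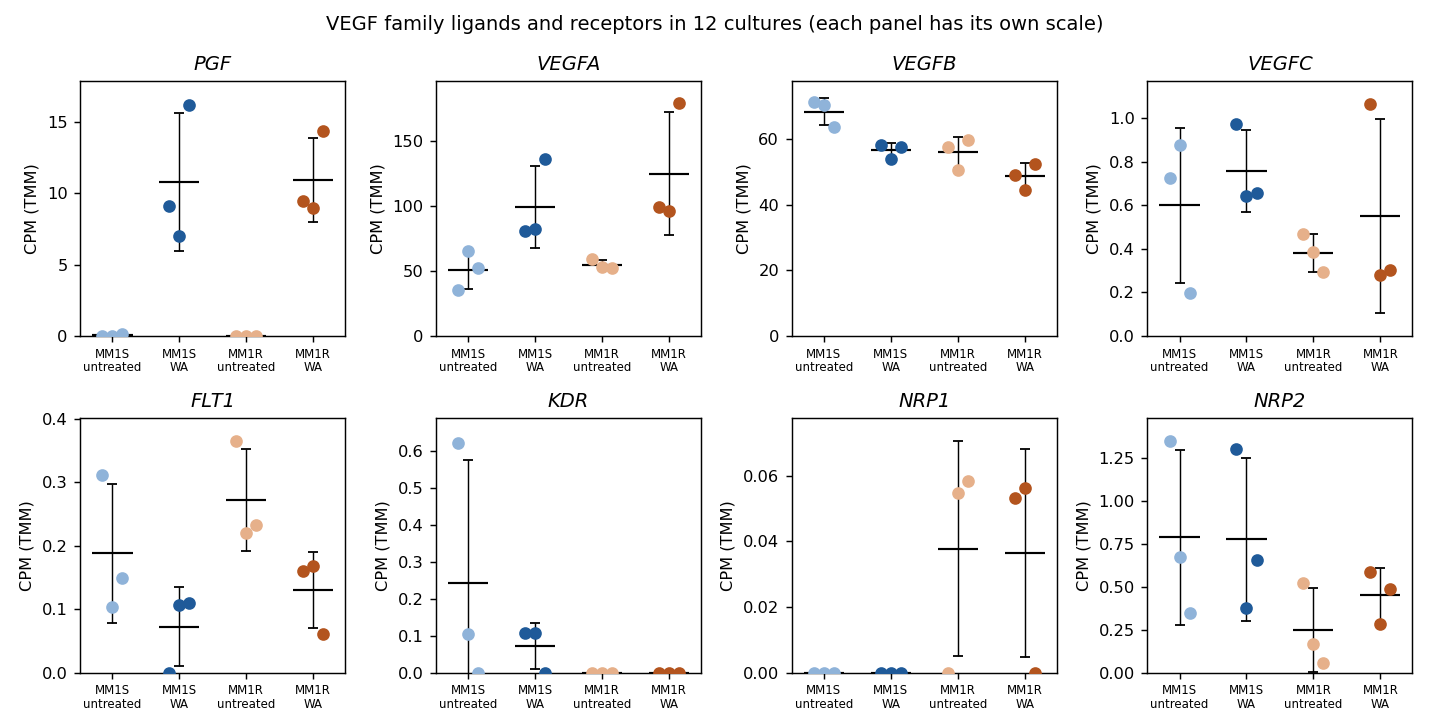
Levels of the 8 VEGF family genes in CPM after TMM scaling, on a separate axis per gene, in the 4 groups. Points are single cultures ordered by passage, horizontal lines are means and bars are SD (n = 3); PGF lay at or near 0 in the untreated cultures and between 6.99 and 16.2 CPM with WA, VEGFA was higher with WA in both lines, and the receptors stayed below 1.4 CPM.

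The 250 bases upstream of 1 of the annotated PGF starts are shown because PGF moved the most of the family. The sequence is from RefSeq (GRCh38.p14, chr14:74955765-74956014, minus strand, written 5′ to 3′ along the gene), with GC boxes (GGGCGG on either strand) in capitals.
PGF: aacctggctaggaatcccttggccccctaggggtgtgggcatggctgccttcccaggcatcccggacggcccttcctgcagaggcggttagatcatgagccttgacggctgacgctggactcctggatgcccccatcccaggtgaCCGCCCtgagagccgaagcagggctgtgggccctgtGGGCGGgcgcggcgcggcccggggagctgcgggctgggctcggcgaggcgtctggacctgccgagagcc
These GC boxes begin 105 and 69 bases before the start, and 70.8% of the bases are G or C. A further PGF start is annotated in RefSeq, with an upstream window at chr14:74955598-74955847. That window has a GC content of 80.0% and 3 GC boxes, 236, 70 and 49 bases before the further start. It also holds 1 match to an antioxidant response element (TGACNNNGC), TGACCGGGC, 115 bases before the further start. Which start was used in these cells was not tested. For comparison, the same upstream stretch is given for VEGFB (chr11:64234334-64234583, plus strand), which was lower with WA, and for VEGFD (chrX:15384414-15384663, minus strand), a related ligand described further on.
VEGFB: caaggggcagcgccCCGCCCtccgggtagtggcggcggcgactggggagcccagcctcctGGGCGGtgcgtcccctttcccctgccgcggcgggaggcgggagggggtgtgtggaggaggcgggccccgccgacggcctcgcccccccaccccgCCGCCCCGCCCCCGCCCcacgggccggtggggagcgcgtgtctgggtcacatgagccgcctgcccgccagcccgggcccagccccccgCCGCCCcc
VEGFD: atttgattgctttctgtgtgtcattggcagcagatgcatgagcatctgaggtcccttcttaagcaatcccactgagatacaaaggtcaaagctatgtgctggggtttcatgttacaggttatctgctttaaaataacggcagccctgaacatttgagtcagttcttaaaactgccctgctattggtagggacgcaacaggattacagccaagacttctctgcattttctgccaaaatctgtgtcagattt
VEGFB held 6 GC boxes at a GC content of 82.8%, and VEGFD none at 43.2%. In the 8 windows available for 7 family genes (PGF, VEGFB, VEGFC, FLT1, KDR, NRP2 and VEGFD), no match was found on either strand to the heat shock elements GAANNTTC and TTCNNGAA, the hypoxia response element ACGTG, the metal response elements TGCACNC and TGCGCNC or the ATF4 composite site TGATGNAA. Among all 35116 upstream windows of this length, GAANNTTC occurred in 5.78%, TTCNNGAA in 6.62%, ACGTG in 18.5%, a metal response element in 24.8%, TGATGNAA in 3.14%, TGACNNNGC in 10.9% and the GC box in 42.6%. These matches describe the letters of short windows and say nothing of where a factor binds.

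VEGFA, the prototypic ligand of KDR, was about doubled with WA. It spans chromosome 6 from 43737921 to 43754224 on GRCh37, plus strand, with 8 exons in the canonical transcript. In MM1S of passages 16, 22 and 23 it had 680, 1257 and 1055 reads in untreated cells and 1484, 1537 and 2486 reads with WA. In MM1R of passages 4, 6 and 7 the counts were 1133, 969 and 896 in untreated cells and 1852, 1705 and 2948 with WA. Within each line the groups did not overlap, and as for PGF the highest WA count of a line was found at passage 23 of MM1S and passage 7 of MM1R.

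The level of VEGFA went from 50.9 ± 14.9 to 99.4 ± 31.5 CPM (SD, n = 3) in MM1S and from 54.8 ± 3.65 to 124.7 ± 47.4 CPM (SD, n = 3) in MM1R. Log2 fold changes were 1.19 ± 0.27 (SE) in MM1R and 0.97 ± 0.27 (SE) in MM1S, with adjusted p-values of 0.011 and 0.036 by the same edgeR test. The pair of passage 22 in MM1S showed the smallest change, 0.34 on the log2(CPM + 0.5) scale, and the pair of passage 7 in MM1R the largest, 1.77. In MM1R the call was lost without untreated MM1R of passage 6 (1.15, adjusted p = 0.051 by edgeR) and without the WA culture of passage 7 (0.86, adjusted p = 0.051 by edgeR). In MM1S it was lost without untreated MM1S of passage 16 (0.76, adjusted p = 0.1 by edgeR) or passage 23 (0.99, adjusted p = 0.096), without the WA culture of passage 23 (0.67, adjusted p = 0.16), without untreated MM1R of passage 6 (0.93, adjusted p = 0.061), and in a fit of the 6 MM1S libraries alone (0.96, adjusted p = 0.066).

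PGF and VEGFA were the members of the family that passed the limit of an adjusted p of 0.05, and both were higher with WA in both lines. Over all 14085 genes tested, 14.0% passed this limit in MM1R (7.55% higher, 6.46% lower) and 10.5% in MM1S (6.25% higher, 4.23% lower). As PGF was tested only because of its WA libraries, the share of tested members carries no weight of its own.

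VEGFB, a ligand of FLT1 linked to fatty acid uptake by the endothelium, was a little lower with WA. It spans chromosome 11 from 64002056 to 64006736 on GRCh37, plus strand, with 7 exons in the canonical transcript. In MM1S of passages 16, 22 and 23 the counts were 1373, 1361 and 1277 in untreated cells against 1075, 1009 and 1053 with WA. In MM1R of passages 4, 6 and 7 they were 1103, 921 and 1024 against 919, 790 and 862. The groups were apart in MM1S and overlapped in MM1R after scaling, and the WA culture was the lower one in 6 of 6 pairs.

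In CPM, VEGFB went from 68.3 ± 4.20 to 56.5 ± 2.34 (SD, n = 3) in MM1S and from 55.9 ± 4.77 to 48.6 ± 4.01 (SD, n = 3) in MM1R. Neither difference passed the test, with a log2 fold change of -0.27 in MM1S (SE 0.11, adjusted p = 0.12) and -0.20 in MM1R (SE 0.11, adjusted p = 0.24) (edgeR). With passage as replicate block the MM1S value was -0.27 (SE 0.09, adjusted p = 0.034 by edgeR) and passed, and the MM1R value had an adjusted p of 0.099. When WA was averaged over both lines, an alternative chosen after seeing the data, VEGFB had a value of -0.24 ± 0.07 (SE) on the log2 scale and an adjusted p of 0.028 by edgeR, in a comparison in which 28.5% of all genes passed.

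**Figure D2:**
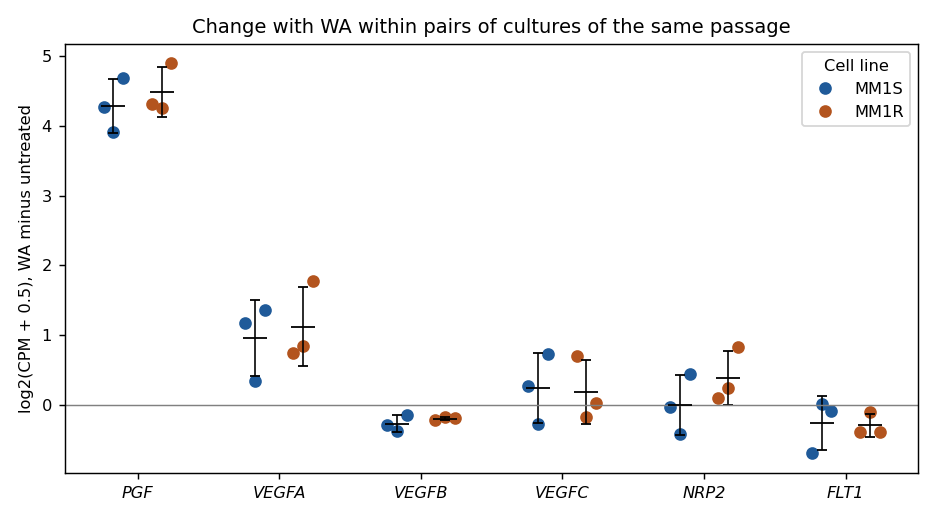
Change with WA in each pair of cultures of the same line and passage, as the difference of log2(CPM + 0.5), for 6 family genes. Points are single pairs (3 per line), horizontal marks are means and bars are SD; PGF lay between 3.91 and 4.89, VEGFA between 0.34 and 1.77, and VEGFB below 0 in all 6 pairs, whereas the pairs of VEGFC and NRP2 fell on both sides of 0.

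VEGFC, the ligand that promotes lymphatic vessel growth, was detected at 4 to 20 reads per library. It maps to chromosome 4, 177604689 to 177714076 (minus strand, GRCh37). Its level was 0.601 ± 0.356 CPM in untreated MM1S and 0.757 ± 0.189 CPM with WA, and 0.381 ± 0.0885 CPM in untreated MM1R and 0.551 ± 0.447 CPM with WA (SD, n = 3 each). The groups overlapped in both lines, and the highest MM1R value came from the WA culture of passage 4 alone, with 20 reads. A difference was not detectable at this depth (log2 fold change 0.34, SE 0.55, adjusted p = 0.78 in MM1S and 0.54, SE 0.61, adjusted p = 0.63 in MM1R, edgeR).

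To set the ligands side by side, CPM were divided by the length of the canonical transcript in kb. In untreated MM1S the level per length of VEGFB was 37.9 ± 2.32 CPM per kb and that of VEGFA 14.1 ± 4.13 CPM per kb (SD, n = 3). In untreated MM1R these levels were 31.0 ± 2.64 and 15.2 ± 1.01 CPM per kb (SD, n = 3). VEGFB thus ranked above VEGFA in untreated cells of both lines, without overlap of the cultures. With WA, VEGFA reached 27.5 ± 8.72 CPM per kb in MM1S and 34.6 ± 13.1 CPM per kb in MM1R, and overlapped VEGFB at 31.3 ± 1.30 and 27.0 ± 2.22 CPM per kb (SD, n = 3). PGF followed with WA at 6.19 ± 2.78 CPM per kb in MM1S and 6.28 ± 1.71 CPM per kb in MM1R, below both and above VEGFC, which had at most 0.335 CPM per kb as a group mean. The order with WA depends on the length used, since per kb of all annotated exons VEGFA had 6.89 CPM in MM1S and 8.64 CPM in MM1R, below VEGFB at 28.7 and 24.7 CPM.

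**Figure D3:**
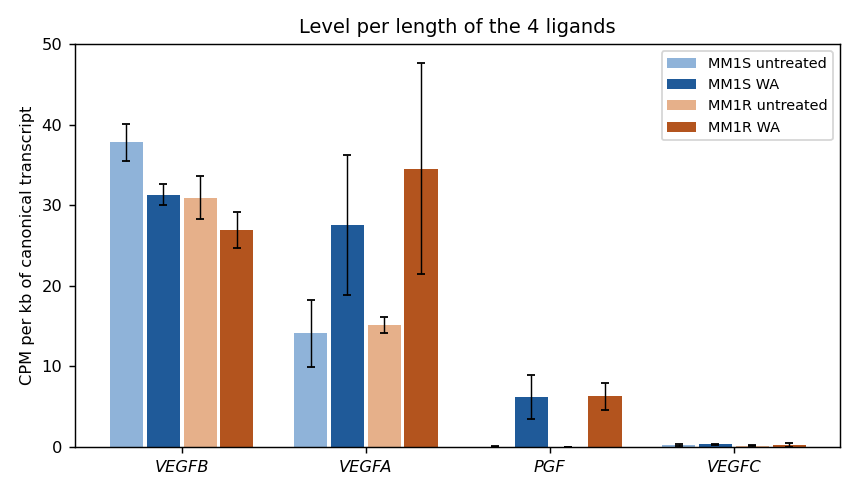
Level per length of the 4 ligands in CPM per kb of canonical transcript, in the 4 groups. Bars are means and error bars SD (n = 3); VEGFB stood highest in untreated cells of both lines, VEGFA with WA came up to the range of VEGFB, and PGF was visible with WA only.

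The receptors were at the edge of detection. FLT1, the receptor of PGF, VEGFA and VEGFB, maps to chromosome 13, 28874483 to 29069282 (minus strand, GRCh37) and had 0 to 7 reads per library. Its summed reads were 11 in untreated MM1S and 4 with WA, a ratio of 0.385 (95% interval 0.0894 to 1.30), and 15 in untreated MM1R and 7 with WA, a ratio of 0.481 (95% interval 0.166 to 1.25). Both intervals include no change.

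KDR, the main signalling receptor of VEGFA, maps to chromosome 4, 55944648 to 55991762 (minus strand, GRCh37). No read was counted on it in any of the 6 MM1R libraries, which allows up to 0.165 CPM in the untreated and 0.170 CPM in the WA cultures at a floor of 3 reads. In MM1S of passages 16, 22 and 23 it had 12, 2 and 0 reads in untreated cells and 2, 2 and 0 with WA, so that 1 untreated library held most of its reads. NRP1, mapped to chromosome 10, 33466420 to 33625190 (minus strand, GRCh37), had no read in the 6 MM1S libraries and at most 1 read in an MM1R library.

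NRP2 was the receptor gene with the most reads and the one that could be tested. It maps to chromosome 2, 206546714 to 206662857 (plus strand, GRCh37), and had 26, 13 and 7 reads in untreated MM1S (passages 16, 22 and 23) and 24, 7 and 12 with WA. In MM1R of passages 4, 6 and 7 it had 10, 3 and 1 reads in untreated cells and 11, 5 and 8 with WA. Both MM1S cultures of passage 16 stood above the others. The log2 fold change with WA was -0.02 in MM1S (SE 0.60, adjusted p = 0.99) and 0.82 in MM1R (SE 0.75, adjusted p = 0.53) (edgeR), and in MM1R it moved to 1.94 without untreated MM1R of passage 4 and to 0.38 without untreated MM1R of passage 7.

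A low entry in the count table need not mean a low transcript level, which was not measured in another way. LDHA, which encodes a subunit of lactate dehydrogenase and is used by nearly all proliferating cells, was listed with at most 4 reads in any library, EGLN2 with at most 3, HRAS with at most 1 and FKBP2, the neighbour of VEGFB, with 0. The reason was not tested, and the entries of FLT1, KDR and NRP1 are therefore given as listed counts.

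The genes next to PGF were examined because the reads of overlapping transcripts may be shared. The long non-coding RNA LOC107984690, which overlaps PGF, had no read in untreated cells, 14, 4 and 19 reads in MM1S with WA and 12, 0 and 17 reads in MM1R with WA. Like PGF it was tested only through its WA libraries, and by edgeR it lay at the limit, with an adjusted p of 0.045 in MM1S and 0.054 in MM1R (0.0026 and 0.0039 with passage as replicate block). By DESeq2 the adjusted p was 0.0063 in MM1R. In MM1S DESeq2 gave an unadjusted p of 0.00025 but no adjusted p, so that no call could be made. With the block DESeq2 gave an unadjusted p of 0.16 in MM1S and 0.25 in MM1R. The MM1S call by edgeR was kept in 5 of 12 fits that left out 1 library (adjusted p up to 0.11), and how reads in the overlap were assigned is not given in the sources used here. RPS6KL1, the nearest listed gene on the side of lower coordinates, had 63 to 115 reads in untreated and 127 to 161 reads in WA-treated MM1S, with a log2 difference of 0.77 in MM1S and 0.85 in MM1R (adjusted p = 0.044 and 0.024, edgeR). These RPS6KL1 calls were kept in 3 of 12 fits with a library left out in MM1S (highest adjusted p 0.13) and 8 of 12 in MM1R (highest adjusted p 0.12, without untreated MM1R of passage 6), and the MM1S call was also lost with DESeq2's size factors (adjusted p = 0.052) and with the 6 MM1S libraries alone (adjusted p = 0.098). EIF2B2, a translation initiation factor subunit on the other side, had a log2 fold change of -0.34 in MM1S (adjusted p = 0.15) and -0.41 in MM1R (adjusted p = 0.069) (edgeR). MRPS18A beside VEGFA and DNAJC4 beside VEGFB did not pass (adjusted p of at least 0.53 in both lines, edgeR).

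The family has a further ligand, VEGFD, and a further receptor, FLT4, both below the count filter. VEGFD, a lymphangiogenic factor gene mapped to chromosome X, 15363718 to 15402535 (minus strand, GRCh37), had 0, 0 and 1 reads in untreated MM1S (passages 16, 22 and 23) and 9, 4 and 8 with WA. It had no read in untreated MM1R and 4, 3 and 3 reads with WA at passages 4, 6 and 7. Every WA culture thus held more reads than any untreated culture, at levels near the floor. The ratio of summed counts was 22.2 in MM1S (95% interval 3.58 to 919.5), and without the filter the gene passed in MM1S (log2 fold change 4.00, SE 1.14, adjusted p = 0.0096) and MM1R (adjusted p = 0.029) by edgeR. As said for PGF, p-values of that fit hardly reflect the spread of a single gene between cultures, so this pass carries little weight. PIR, the neighbour of VEGFD and an iron-binding nuclear protein gene, shares with VEGFD an annotated readthrough transcript of at most 1 read. PIR rose in MM1R (log2 fold change 1.42, adjusted p = 0.016) and had 0.76 in MM1S (adjusted p = 0.18, and 0.049 with passage as replicate block) by edgeR. By DESeq2 with the block, PIR in MM1S had an adjusted p of 0.25. The MM1R call of PIR was lost without untreated MM1R of passage 6 (adjusted p = 0.083, edgeR) and without the WA culture of passage 7 (adjusted p = 0.075, edgeR). FLT4, the receptor of VEGFC and VEGFD, had 0 to 7 reads.

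Whether the GC-resistant line differed from the GC-sensitive line was asked with the limits of 0.01 for the adjusted p and 1 for the size of the log2 fold change. None of the 5 members tested passed in untreated cells, where 2.97% of all genes did, and 2 members had an unadjusted p under 0.05 by edgeR. These were VEGFB (log2 fold change of MM1R against MM1S -0.29, SE 0.11, adjusted p = 0.093) and NRP2 (-1.61, SE 0.70, adjusted p = 0.16). The NRP2 value was -0.98 without untreated MM1S of passage 16 (adjusted p = 0.43) and -2.73 without untreated MM1R of passage 4 (adjusted p = 0.057) by edgeR. With WA no member passed either, against 3.04% of all genes, and DESeq2 called 0 members in both comparisons. The levels of PGF with WA differed between the lines by 0.02 ± 0.35 (SE) on the log2 scale and those of VEGFA by 0.33 ± 0.27 (SE), with adjusted p-values of 0.97 and 0.45 by edgeR.

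An interaction term tested whether WA acted differently in MM1R and MM1S. By edgeR this term passed for 0 of the 14085 genes, that is 0% of them. Only 97 genes had p below 0.05 before adjustment, a far smaller share than the 0.05 due without any difference. The test was thus cautious, and its lack of calls does not show that the lines responded alike. Other settings gave 1 gene (DESeq2), 6 (DESeq2 with passage as replicate block) and 0 (edgeR with the block). The edgeR fit with no filter on low counts gave 11, and its p-values hardly reflect the spread between cultures. No member was called in any of them. For VEGFA the effect of WA in MM1R minus that in MM1S was 0.22 on the log2 scale (SE 0.38), and for VEGFB it was 0.07 (SE 0.15). For PGF the difference could not be measured, as the untreated reads were 3 in one line and 0 in the other.

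Genes of the surrounding pathway were examined in lists that were also chosen with earlier results of these data known. Of 46 tested genes of VEGF receptor signalling, 11 passed with WA in MM1R (6 higher, 5 lower) and 9 in MM1S (5 higher, 4 lower), where 14.0% and 10.5% of all genes passed. With passage as replicate block 24 and 21 of them passed, where 4094 and 3399 of all genes did. Without untreated MM1R of passage 6 the MM1R count was 5, and without untreated MM1S of passage 22 the MM1S count was 3. Over the list the median log2 difference was -0.14 in MM1R and -0.09 in MM1S, beside 0.01 and 0.02 over all genes tested. HSPB1, a small heat shock protein phosphorylated downstream of p38, rose from 22.4 to 373.1 CPM in MM1S and from 56.1 to 935.8 CPM in MM1R (adjusted p = 9.9e-05 and 9.4e-05, edgeR). CASP9, the initiator caspase inhibited by AKT, rose by 1.07 and 0.94 on the log2 scale in MM1S and MM1R (adjusted p = 0.00054 and 0.0012, edgeR). PIK3R1, a regulatory subunit of PI3 kinase, rose by 0.74 and 1.02 (adjusted p = 0.011 and 0.0013, edgeR; 0.06 in MM1S without untreated MM1S of passage 22). In the other direction, PLCG1, the phospholipase recruited to activated KDR, had log2 fold changes of -0.48 and -0.36 (adjusted p = 0.0043 and 0.017, edgeR; up to 0.068 in MM1R, without the WA culture of passage 4 or 7), and PLA2G4A, which releases arachidonic acid, of -0.84 and -0.86 (adjusted p = 0.011 and 0.0077, edgeR; 0.052 in MM1S without untreated MM1S of passage 22).

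Of 16 tested hypoxia target genes, among which VEGFA is commonly counted, 7 passed in MM1R (6 higher, 1 lower) and 6 in MM1S (5 higher, 1 lower), where 14.0% and 10.5% of all genes passed (7.55% and 6.25% higher). The medians of the list were 0.35 and 0.17, beside 0.01 and 0.02 over all genes. With single libraries left out the list count ranged from 5 to 9 in MM1R and from 4 to 7 in MM1S. With passage as replicate block 10 passed in MM1R and 8 in MM1S by edgeR, where 4094 and 3399 of all genes did. Without the block SLC2A1, PGK1, ALDOA, ENO1, PDK1, BNIP3L, ADM, NDRG1 and ANKRD37 passed in neither line. Their log2 fold changes lay between -0.56 and 0.73 in MM1R and between -0.59 and 0.71 in MM1S. P4HA2, a collagen prolyl hydroxylase subunit, rose by 3.56 on the log2 scale in MM1S and 4.08 in MM1R (adjusted p = 1.5e-06 and 5.4e-07, edgeR). Its relative P4HA1 rose by 1.54 in either line (adjusted p = 2.6e-05 and 2.3e-05, edgeR). DDIT4, an inhibitor of mTORC1 that also responds to other stresses, rose by 3.56 and 3.66 (adjusted p = 0.0011 and 0.00069, edgeR), and KDM3A, a histone demethylase, by 0.53 and 0.65 (adjusted p = 0.034 and 0.011, edgeR), with the MM1S call of KDM3A kept in 7 of 12 fits that left out 1 library. HK2, the glycolytic hexokinase, went the other way with log2 fold changes of -1.27 and -1.64 (adjusted p = 0.012 and 0.0023, edgeR), although the MM1S call was lost in a fit of the 6 MM1S libraries alone.

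**Figure D4:**
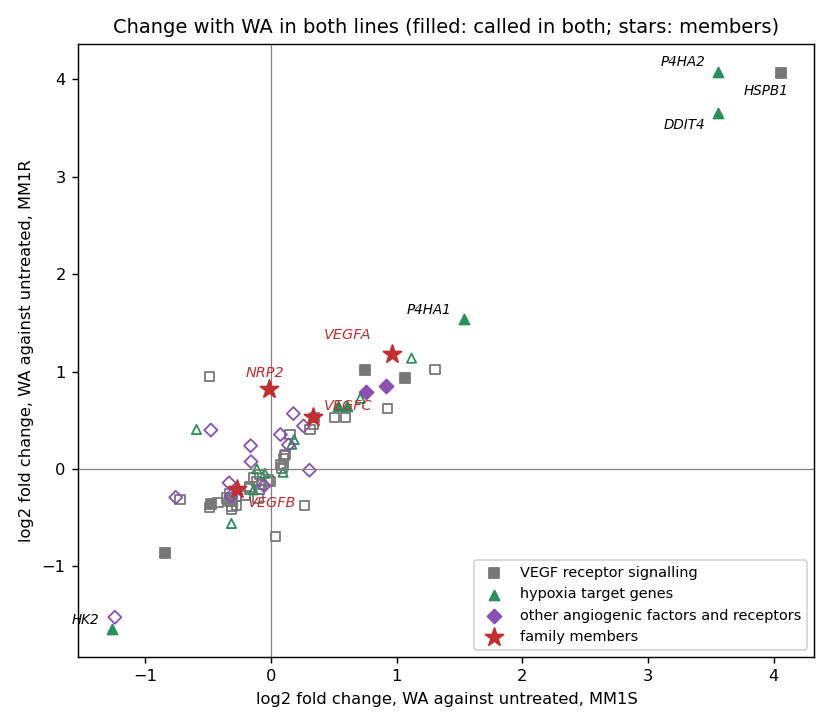
Log2 fold change with WA in MM1S (horizontal axis) and MM1R (vertical axis) of the tested genes of VEGF receptor signalling, hypoxia targets and other angiogenic factors, with VEGFA, VEGFB, VEGFC and NRP2 as stars. Filled squares, triangles and diamonds passed an adjusted p of 0.05 in both lines and open ones did not, stars carry no such coding, and PGF (7.54 and 10.66) lies outside the axes; HSPB1, P4HA2 and DDIT4 stood apart at high values in both lines.

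Of the 18 tested regulators of VEGF transcription, such as HIF1A, VHL and HSF1, 0 passed in MM1R by edgeR, where 8 had an unadjusted p under 0.05 and DESeq2 called 4. In MM1S 1 passed, PPARGC1A, a coactivator of mitochondrial genes, which rose by 0.87 on the log2 scale (adjusted p = 0.042, edgeR) and had 0.74 in MM1R (adjusted p = 0.072, edgeR), and whose MM1S call was kept in 6 of 12 fits that left out 1 library. With passage as replicate block 8 of the 18 passed in MM1R and 3 in MM1S by edgeR, where 4094 and 3399 of all 14085 genes did. Without the block 14.0% of all genes passed in MM1R and 10.5% in MM1S by edgeR. In MM1R 3997 of all genes had an unadjusted p under 0.05 by edgeR, and DESeq2 called 2483. The median of the list was -0.04 in MM1R and -0.05 in MM1S.

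Among 15 tested angiogenic factors and receptors of other families, 3 passed in MM1R and 2 in MM1S, beside 14.0% and 10.5% of all genes, shares close to those of the list. FGF2, basic fibroblast growth factor, rose by 0.76 in MM1S and 0.80 in MM1R (adjusted p = 0.0058 and 0.0039, edgeR), and its receptor FGFR1 by 0.92 and 0.85 (adjusted p = 0.016 and 0.017, edgeR; kept in 10 of 12 fits that left out 1 library, in either line). APLN, which encodes apelin, fell by 1.52 in MM1R (adjusted p = 0.039, edgeR; kept in 4 of 12 such fits) and had -1.24 in MM1S (adjusted p = 0.093, edgeR). The medians were 0.24 in MM1R and -0.06 in MM1S. Of 8 tested angiogenesis inhibitors 1 passed in each line, the chemokine CXCL10, which fell, with log2 fold changes of -1.83 in MM1S and -1.76 in MM1R (adjusted p = 0.022 and 0.015, edgeR; kept in 9 and 11 of 12 such fits, with -0.99 in MM1S without untreated MM1S of passage 16), with list medians of 0.06 and 0.13.

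The semaphorins and plexins that work with neuropilins gave 0 of 7 tested genes with WA in either line by edgeR, with 0 at an unadjusted p under 0.05 and 0 by DESeq2, and medians of -0.17 in MM1R and -0.09 in MM1S. Between the untreated lines 1 of them passed, PLXND1, a plexin of vascular development, which is named because it was the only one and was lower in MM1R (8.34 CPM in MM1S and 2.15 CPM in MM1R, log2 fold change -1.96, adjusted p = 0.00083, edgeR). Over all genes tested, 2.97% passed between the untreated lines, and 14.0% and 10.5% with WA in MM1R and MM1S. From the other lists, PDGFB (log2 fold change 1.13, adjusted p = 0.0013) and SLC2A3 (1.87, adjusted p = 0.003) were higher in untreated MM1R by edgeR, and were likewise named after their values were seen. The call of PDGFB was kept in 10 and that of SLC2A3 in 8 of 12 fits that left out 1 library.

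The genes whose log2(CPM + 0.5) over the 12 libraries was most alike to that of PGF were HSPA1B_1 (Pearson's r = 0.996), AZIN1 (0.995), HSPA1B_2 (0.994), HSP90AA1 (0.994) and BAG3 (0.994). HSPA1B_1 and HSPA1B_2 are entries for copies of the same heat shock gene, whose reads cannot be assigned with certainty, HSP90AA1 and BAG3 encode a chaperone and a co-chaperone, and AZIN1 encodes an inhibitor of antizyme. For VEGFA they were SAT1 (0.984), an enzyme of polyamine breakdown, SIRPA (0.970), WBP2 (0.960), ZNF10 (0.955) and LOC283788 (0.953). These correlations describe 12 libraries that fall into untreated and WA groups, which any gene with a large change with WA shares.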

How the data were processed

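RNA-seq of 12 cultures (MM1S and MM1R, untreated or with WA, 3 per group) was analysed. The authors assessed reads with FastQC 0.11.5, mapped them to hg19 with STAR 2.7.3a and deposited raw counts per gene without normalization. The annotation and strand setting are not given in the sources used here. The authors also deposited a normalized signal, counts divided by size factors of DESeq2, which was used for no test. Groups and passage numbers were taken from the sample labels. Every entry of the count table names a gene, and total counts ranged from 17625110 to 19368343.

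Counts were tested with edgeR 4.0.16 under R 4.3.3, with limma 3.58.1 loaded and DESeq2 1.42.0 as an alternative. Genes were kept by filterByExpr (minimum count 10), libraries were scaled with TMM, and the quasi-likelihood test of edgeR, with p-values adjusted by the Benjamini-Hochberg method over 14085 genes, was run in 1 fit of all 12 libraries. Effects of WA and their difference between lines were called at an adjusted p of 0.05, and lines at an adjusted p of 0.01 with a log2 fold change of 1 in size. Differences within pairs used a pseudocount of 0.5 CPM. Cultures are described as independent by the study but are of 1 line each, so that p-values measure the spread between cultures. Those of the edgeR fit with no filter on low counts hardly do so. No 2 replicates of a group agreed within sampling noise, as chi-square divided by its degrees of freedom was 8.06 to 44.3.

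Members and gene lists were chosen with earlier results of these data known. Named genes were all members, up to 5 genes of each list past the limit with WA, the nearest and overlapping genes of each member, and the 5 genes most alike to PGF and VEGFA. Of the neighbours, those of PGF, VEGFA, VEGFB and VEGFD are described, and none of the others that could be tested (SPCS3, PAN3, SRD5A3 and PARD3B) passed with WA. PLXND1, PDGFB and SLC2A3 are named outside this rule. Neighbours were taken from RefSeq, positions from GENCODE on GRCh37, and upstream sequences from RefSeq, which matched 6 of the 8 members.

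Cultures of the same line and passage deviated together from their group means (r = 0.744, 0.262 and 0.491 for passages 16, 22 and 23 of MM1S and 0.427, 0.221 and 0.254 for passages 4, 6 and 7 of MM1R), and the shared passage number comes from the labels, so that a fit with passage as replicate block was treated as paired. Some cultures of unlike passage did so too in MM1S, with r = 0.347 for untreated passage 22 against WA passage 23. For untreated passage 23 against WA passage 22 it was 0.419, so passages 22 and 23 were poorly told apart. The other unmatched pairs had r from -0.653 to -0.435 in MM1S, and all those of MM1R had -0.38 to 0.106.

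The edgeR test was tested on simulated data, in which it recovered 92.5% of 200 changed genes (log2 fold change 1.58) for WA in MM1R and 90.5% of 200 for WA in MM1S among 13851 genes, with 3.6% and 6.2% of calls false. The changed genes had higher mean counts than VEGFC and NRP2, and passages were not paired. No group without reads, as for PGF in untreated MM1R, was built in. These shares therefore do not carry over to such members. As alternatives, the filter was dropped or set to 10 reads or more in all libraries, size factors or the test of DESeq2 were used, the fit was limited to the compared libraries, and passage was added as replicate block. Further alternatives were a pseudocount of 1 CPM, no limit on the fold change between lines, and each library left out in turn. WA averaged over both lines and the length of all annotated exons were added after seeing the data.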

Additional observations from a re-analysis of the deposited data

How the results depend on the processing

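PGF and VEGFA, 2 members called with WA in each line, became 1 (VEGFA) in MM1R and in MM1S under a filter of 10 reads or more in each library, which leaves PGF out by construction, and 1 (PGF) in MM1S with only the libraries compared. With each library left out in turn the number of members called with WA lay between 1 and 2 in MM1R and in MM1S, and PGF was called in all of these fits, with fitted log2 fold changes of 10.45 to 10.79 in MM1R and 7.02 to 10.63 in MM1S. PGF entered these fits through its WA libraries only, and its fitted values hang on few untreated reads, so these calls add no weight of their own. VEGFA lay between 0.86 and 1.35 in MM1R and between 0.67 and 1.18 in MM1S, and its call was lost in the fits named in the report. The cause was not tested.

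With passage as replicate block, VEGFA had a log2 fold change of 1.12 (adjusted p = 0.0016, edgeR) in MM1R and 0.97 (adjusted p = 0.005, edgeR) in MM1S, PGF kept its calls, and VEGFB in MM1S was the 1 member call that changed (-0.27 by edgeR, and -0.29 with an adjusted p of 0.027 by DESeq2). The number of all genes called with WA was 4094 (edgeR) and 3424 (DESeq2) in MM1R with the block, against 1973, and 3399 and 2930 in MM1S, against 1476. Between the lines, 419 untreated and 428 WA calls became 811 and 819 with no filter, 234 and 222 under a filter of 10 reads or more in each library, and 1681 and 1690 with an adjusted p of 0.05 and no limit on the fold change. Leaving out single libraries gave 950 (untreated MM1R of passage 6) to 2396 calls with WA in MM1R, 726 (untreated MM1S of passage 23) to 1621 in MM1S, 268 (untreated MM1R of passage 6) to 537 between untreated lines and 264 to 649 between the lines with WA.

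Reversals of sign concerned values that were never called. The difference between lines in the effect of WA on VEGFC was -0.14 by DESeq2 with the block, against 0.20. With single libraries left out, VEGFC ranged from -0.38 to 0.87 with WA in MM1R, from -0.083 to 0.71 in MM1S and from -0.72 to 0.62 in the difference between lines. NRP2 ranged from -0.61 to 0.60 with WA in MM1S. VEGFA ranged from -0.10 to 0.32 between untreated lines, from -0.004 to 0.61 between lines with WA and from -0.10 to 0.51 in the difference between lines, and PGF from -0.21 to 0.44 between lines with WA. A pseudocount of 1 CPM lowered the mean change within pairs of PGF to 3.41 in MM1S and 3.55 in MM1R.

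Counting of FLT1, KDR, NRP1, VEGFD and FLT4 at a few reads per library kept them below the filter, and VEGFD passed in both lines only in fits without it (adjusted p = 0.0096 in MM1S and 0.029 in MM1R, edgeR). NRP2 in untreated MM1R against MM1S was not called even at a log2 fold change of -1.61, and with single libraries left out it ranged from -2.73 to -0.98, and from 0.38 to 1.94 with WA in MM1R. VEGFA with WA had an adjusted p of 0.00027 in MM1R and 0.0059 in MM1S by DESeq2, and 3.6e-13 and 1.2e-08 with no filter on low counts by edgeR. As said for PGF, the p-values with no filter hardly reflect the spread of a single gene between cultures.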
